A study of Mus musculus with 15 samples.

Results

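Macrophages grown from a Hoxb8 progenitor line stood beside primary bone marrow-derived macrophages (BMDM) in a study whose title concerns macrophages carrying a chimeric antigen receptor (CAR). The 6 libraries described here, 3 of Hoxb8 macrophages and 3 of BMDM, were chosen by their sample titles from 15 mouse RNA-seq libraries. The 15 fall into 5 groups of 3, and the other groups are progenitor cells, control-CAR macrophages and CAR macrophages. Every gene in the table of 17030 was looked at, and 10699 of them reached 1 FPKM (fragments scaled by transcript length and library total) in at least 3 of the 6 libraries and were tested. These libraries held 17531784 to 19221681 estimated counts. Both groups carried the same labels: bone marrow as the tissue, wild-type genotype, no treatment, macrophage as the cell type and primary cell in the field for the cell line. Strain, age, sex, culture medium, days of culture, the Hoxb8 construct and the number of clones are not given in the labels. Whether the libraries within a group were separate animals or cultures is not stated either, so the p-values measure only the spread between these libraries, which may be technical.

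BMDM are usually grown from whole marrow in colony-stimulating factor 1 (CSF1), which drives monocyte precursors to become adherent, phagocytic cells and lets other lineages die out. Hoxb8 is a homeobox transcription factor that holds myeloid progenitors in a dividing, undifferentiated state when it is forced on, commonly as a fusion with the hormone-binding part of the estrogen receptor, and such progenitors mature once the factor is switched off. The comparison asks how closely the macrophages made from such a line resemble the primary ones in their transcripts.

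Hoxb8, which the sample titles name, and Esr1, which they do not, differed sharply between the groups. Hoxb8 itself (chr11:96279401-96285325, GRCm38.p6) was at 48.9, 52.1 and 52.6 FPKM in the 3 Hoxb8 macrophage libraries, was listed at 0 in every BMDM library and averaged 122 FPKM in progenitor cells. With a floor of 3 counts per library, that is at least 720.1-fold higher than in BMDM. Esr1, the gene of estrogen receptor alpha (chr10:4611989-5005633), was at 118, 119 and 126 FPKM in Hoxb8 macrophages against 3.85, 4.76 and 5.74 in BMDM, and averaged 328 in progenitor cells. Neither gene overlapped between the groups. The change of Esr1 was 3.76 on the log2 scale (SE 0.11, adjusted p = 2.1e-09). The FPKM of Esr1 differ by more than this modelled change. Its estimated count per FPKM, which scales with the transcript length used, averaged 1942 in Hoxb8 macrophages and 4107 in BMDM. The table counts reads per gene, so transcripts of the endogenous genes and of a construct cannot be told apart. Of the 14 listed homeobox and estrogen receptor genes 4 were tested, 2 higher and 2 lower.

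The groups shared most of their abundant transcripts and differed at most genes by a modest amount. Across 17030 genes, Pearson correlations of log2(FPKM + 1) between single libraries were 0.944 to 0.948 over the 9 pairs of a Hoxb8 macrophage and a BMDM library, against 0.995 to 0.998 within BMDM and 0.998 within Hoxb8 macrophages. The Hoxb8 macrophages lay at 0.809 to 0.811 from progenitor cells and BMDM at 0.796 to 0.803. These correlations describe libraries that share 1 annotation and a large block of genes at or near 0, and they carry no test. Of the 1000 most abundant genes of each group 853 were shared, and of the 100 most abundant 74. By edgeR's quasi-likelihood test, 7109 of 10699 tested genes (66.4%) passed an adjusted p of 0.05, 3410 (31.9%) higher and 3699 (34.6%) lower in Hoxb8 macrophages. Far fewer passed the test for a change beyond 2-fold, 504 (4.71%) higher and 1241 (11.6%) lower. At the other end, 7539 genes (70.5%) had a 95% interval lying wholly within 2-fold. The FPKM of the 3 and 3 libraries did not overlap for 7738 genes (72.3%). Only genes that passed the first of these tests are said to have risen or fallen. Counts of list members called are to be read against 31.9% higher and 34.6% lower over all tested genes. In every list, a gene under 1 FPKM in all libraries of a group entered the test only through the other group. Its direction was then fixed by the filter. BMDM replicate 1 stood apart from its partners in genes of neutrophil granules, C1q and some chemokines. Without it 7093 genes were called, 3396 higher and 3697 lower, and 501 higher and 1254 lower beyond 2-fold.

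The balance of rises and falls rested on the scaling. TMM, the normalisation used throughout, gave BMDM factors of 1.04 to 1.09 and Hoxb8 macrophages 0.937 to 0.943, and the median change of all tested genes was -0.02 on the log2 scale. Higher genes made up 48.0% of those called under TMM. With plain library totals they made up 31.1% and the median change was -0.20, with TPM 19.6% and -0.34, and with quantile-normalised values 56.9% and 0.09. Small changes in a single direction are therefore to be read against that shift, and so are ratios of the FPKM printed here, since the median change was -0.17 on the log2(FPKM + 1) scale.

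**Figure D1:**
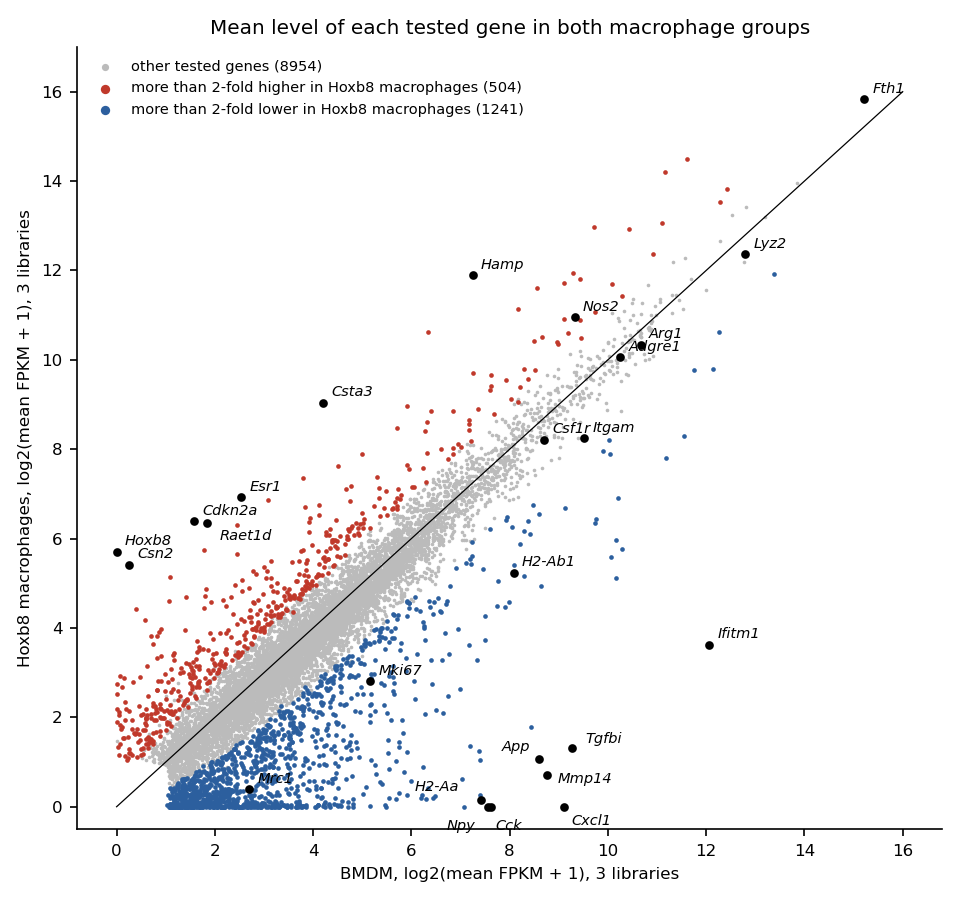
Mean log2(FPKM + 1) of each tested gene in BMDM (horizontal) and Hoxb8 macrophages (vertical), 3 libraries each. Red points are the 504 genes higher and blue points the 1241 genes lower in Hoxb8 macrophages beyond 2-fold, grey points the rest, and some genes of the naming rule are labelled. The blue points reach further from the diagonal than the red ones, down to genes listed at 0 in Hoxb8 macrophages such as Cxcl1, Cck and Npy.

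The 8 most abundant genes among those within 2-fold included both ferritin chains and lysosomal and cytokine genes. Fth1, the ferritin heavy chain, was at 57739, 60810 and 57203 FPKM in Hoxb8 macrophages and 38452, 37390 and 38433 in BMDM, so the groups did not overlap, yet its change of 0.79 (95% interval 0.61 to 0.97) stayed within 2-fold. Ctsd, the lysosomal aspartic protease, was at 11281, 10568 and 10780 against 7757, 6955 and 6806 FPKM (log2 change 0.77, SE 0.08). Lyz2, the lysozyme of myeloid cells, was at 5567, 5236 and 5107 against 7350.2, 6798 and 7066 FPKM (log2 change -0.24, SE 0.08). Ftl1, the ferritin light chain, and Tmsb4x, an actin-binding peptide, differed by 0.27 and 0.17 under TMM, but with TPM by -0.075 and -0.17, so their direction is not fixed. The cytokine Il1b was at 6560.5, 6216 and 6486 against 5009, 4933 and 5028 FPKM, 0.53 under TMM and -0.26 under quantile normalisation.

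The 8 largest rises, chosen by size among genes with at least 10 FPKM and no overlap, held secreted proteins and a cell cycle inhibitor besides Hoxb8 and Esr1. Hamp encodes hepcidin, the peptide hormone that makes cells take in and degrade the iron exporter ferroportin (chr7:30942368-30944029). Its 3 Hoxb8 macrophage libraries held 3890.4, 4049 and 3545 FPKM and its BMDM libraries 141, 153 and 159 (log2 change 4.83, SE 0.14). Cdkn2a encodes p16-INK4a and ARF, which stop the cell cycle through RB and p53 (chr4:89274473-89294619). It was at 82.9, 79.5 and 87.7 against 1.49, 1.77 and 2.70 FPKM (log2 change 5.51, SE 0.18) and averaged 31.9 in progenitor cells. In both Hamp and Cdkn2a every Hoxb8 macrophage library stood more than 10-fold above every BMDM library. Raet1d, a ligand of the NK cell receptor NKG2D, was at 82.2, 71.2 and 86.3 against 2.76, 2.78 and 2.16 FPKM. The milk protein gene Csn2 was at 39.3, 39.5 and 46.6 against 0.07, 0.26 and 0.25 FPKM. A further rise, Csta3 at 478, 534 and 567 against 14.6, 19.8 and 18.04 FPKM, belongs to the stefin A cluster of near-identical protease inhibitors, whose reads may be split between copies.

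The 8 largest falls ran from high levels in BMDM to near 0 in the line. Cxcl1, the neutrophil attractant (chr5:90891245-90893121), was at 573, 534 and 531 FPKM in BMDM and at 0 in every Hoxb8 macrophage library, at least 1866-fold lower. Ifitm1, a membrane protein induced by interferon, was at 9.47, 12.3 and 12.3 FPKM against 4037, 4393 and 4382 (log2 change -8.30, SE 0.12). Mmp14, a matrix protease held in the cell membrane, was at 0.59, 0.52 and 0.80 against 456, 435 and 402 FPKM (log2 change -9.23, SE 0.16). In all 3, every BMDM library stood more than 100-fold above every Hoxb8 macrophage library. Tgfbi, a secreted adhesion protein, was at 1.31, 1.77 and 1.42 against 667, 593 and 599.9 FPKM, and App, the amyloid precursor, at 1.04, 1.31 and 0.92 against 390.1, 402 and 366. The neuropeptide genes Cck and Npy, at 184, 197 and 208 and at 195, 183 and 189 FPKM in BMDM, were listed at 0 in Hoxb8 macrophages, at least 400-fold and at least 260.2-fold lower. H2-Aa, the alpha chain of the MHC class II molecule I-A (chr17:34282744-34287823), completed the set at 0.35, 0 and 0 against 161, 176 and 174 FPKM (log2 change -10.28, SE 0.80).

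The general macrophage markers were present in both groups, while receptors such as Mertk and Mrc1 were near 0 in Hoxb8 macrophages. Of 26 markers of macrophage identity 21 entered the test, 5 were higher and 11 lower, with a median change of -0.32. Of the 21, 10 had an interval within 2-fold, where 70.5% of all tested genes did. A gene enters the test if either group expresses it, so one expressed in a single group had to differ. In bulk RNA, fewer cells of a type and less RNA per cell cannot be told apart. Adgre1, the F4/80 surface antigen, was at 1135, 1039 and 1036 FPKM in Hoxb8 macrophages and 1429.7, 1152 and 1058 in BMDM, which overlapped (log2 change -0.01, SE 0.12, adjusted p = 0.94), and averaged 0.49 in progenitor cells. Csf1r, the receptor of CSF1, was at 296, 284 and 309 against 461, 411 and 378 FPKM (log2 change -0.32, SE 0.09, adjusted p = 0.01). Both values put each group far above the progenitors at 0.50 FPKM. Cd68, a glycoprotein of the late endosome, was at 846, 783 and 684 against 486, 525 and 510.02 FPKM (log2 change 0.78, SE 0.08), and Itgam, the CD11b integrin chain, at 311, 302 and 301 against 813, 726 and 651 (log2 change -1.09, SE 0.09).

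The 4 markers with the largest changes were all lower in Hoxb8 macrophages. Gpnmb, a glycoprotein of lipid-laden and lysosome-stressed macrophages, was at 35.1, 33.9 and 31.8 FPKM in Hoxb8 macrophages against 1183, 1150 and 1122 in BMDM (log2 change -4.92, SE 0.07). Mertk, the receptor through which macrophages take up dying cells, was at 0.07, 0.11 and 0.07 against 4.66, 3.80 and 3.98 FPKM (log2 change -5.47, SE 0.31). Mrc1, the mannose receptor CD206, was at 0.24, 0.27 and 0.41 against 7.25, 4.56 and 4.70 FPKM (log2 change -3.99, SE 0.30). None of the 3 overlapped between groups, and for Mertk and Mrc1 the level in Hoxb8 macrophages was near the detection limit. The scavenger receptor gene Msr1 fell by 2.61 on the log2 scale. Chosen after its values were seen, Trem2, a lipid-sensing receptor, was at 266, 268 and 285 against 150.3, 146 and 156 FPKM (log2 change 1.02, SE 0.06).

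**Figure D2:**
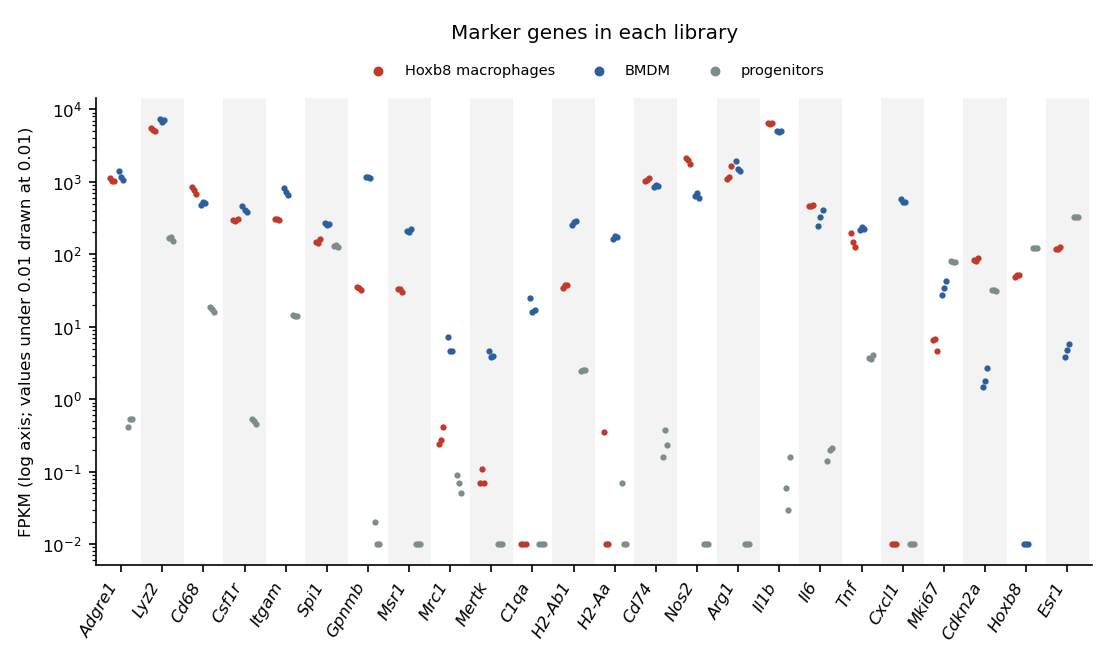
FPKM on a log axis of 24 macrophage, activation and progenitor genes, 1 point per library, for Hoxb8 macrophages, BMDM and progenitor cells, with values under 0.01 drawn at 0.01. Adgre1, Csf1r, Cd68 and Lyz2 sit together in both macrophage groups and apart from the progenitors, whereas Mertk, Mrc1 and H2-Aa separate the macrophage groups.

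The transcription factors of the lineage were kept but several were lower. All 24 listed factors were tested, with 9 higher, 13 lower and a median of -0.49. That median turned to 0.05 when only genes at 5 FPKM or more were kept. Of the 24, 12 had an interval within 2-fold, where 70.5% of all tested genes did. Spi1, which encodes PU.1, the factor that commits cells to the myeloid line, was at 148, 145 and 160.3 FPKM against 272, 254 and 259 (log2 change -0.62, SE 0.07). Its libraries did not overlap, and those of each group lay close together. Klf4, Id3 and Egr2, factors of monocyte and macrophage maturation, fell by 2.70, 1.74 and 1.64 on the log2 scale.

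Growth factor genes that feed macrophages went the other way. Csf1, the ligand of CSF1R, was at 240.5, 232 and 234 FPKM in Hoxb8 macrophages and 33.1, 30.8 and 28.9 in BMDM (log2 change 2.93, SE 0.07). Csf2, the gene of GM-CSF, rose by 2.49, and the receptor of G-CSF, Csf3r, changed by -1.10. Of 11 colony-stimulating factors and receptors 10 were tested, 4 higher and 5 lower with a median of -0.22. Flt3, a receptor of dendritic cell and early progenitors, fell by 6.23. The progenitor list, with 10 of 21 members tested, 4 higher and 5 lower, summed to 73.1 to 82.6 FPKM in Hoxb8 macrophages, 109 to 114 in BMDM and 1338 to 1354 in progenitor cells. Kit, the stem cell factor receptor, was at 5.33, 4.28 and 4.09 against 2.85, 4.07 and 4.27 FPKM, with 113 in progenitor cells, and Cd34 at 2.15, 1.94 and 1.53 against 9.43, 9.85 and 8.65, with 109.8.

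In each class of recognition and uptake genes more members were lower than higher, with some moving either way. Among scavenger receptors and genes of dying cell uptake, 16 of 25 were tested, 3 higher and 9 lower with a median of -0.46. Besides Mertk, the TAM receptor gene Axl fell by 6.82 and Mfge8, a bridge between dying cells and integrins, by 4.41. Fc receptors and their ITAM signalling partners, all 19 tested, held 5 higher and 11 lower members, and 11 had an interval within 2-fold, where 70.5% of all tested genes did. The Src-family kinase gene Fgr fell by 3.27, and the high-affinity IgG receptor gene Fcgr1 by 1.33. Fcrls, an Fc receptor-like gene of macrophages and microglia, had 259 counts, scaled to library totals, in BMDM for each in Hoxb8 macrophages (exact counting interval 71.3 to 2142). Of 24 Toll-like receptors and adaptors 20 were tested, 8 higher and 10 lower with a median of -0.27. Tlr6 and the adaptor Ticam2 rose by 1.51 and 1.44, Irak4 fell by 1.56, and Ly86, the partner of CD180, was at 0 in every Hoxb8 macrophage library and at least 28.2-fold lower. Of 8 genes of the oxidase that makes superoxide 2 were higher and 4 lower, and 6 had an interval within 2-fold, a share near the 70.5% of all tested genes. Its catalytic chain gene Cybb was at 255, 222 and 185 against 488, 533 and 518 FPKM (log2 change -1.04, SE 0.11), and the proton channel gene Hvcn1 fell by 1.46, while Rac2 rose by 0.62 and Cyba changed by 0.29 under TMM and -0.049 with TPM.

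C1q transcripts were near or at 0 in Hoxb8 macrophages, while complement transcripts as a whole were not low. The FPKM of the complement list summed to 2292 to 2450 in Hoxb8 macrophages and 2574 to 3057 in BMDM. C1q opens the classical pathway and is made largely by macrophages. C1qa was listed at 0 in all 3 Hoxb8 macrophage libraries against 25.2, 16.04 and 16.99 FPKM in BMDM, at least 79.5-fold lower, C1qb was at 0.43, 0.54 and 0.50 against 79.8, 53.3 and 56.1 FPKM (log2 change -6.81, SE 0.45), and C1qc fell by 8.40 on the log2 scale. The groups did not overlap, and BMDM replicate 1 stood above its 2 partners. In all, 14 of 19 complement genes were tested, 2 higher and 10 lower, median -1.22. Cd59a, which shields cells from the lytic pore, had 76.6 scaled counts in BMDM for each in Hoxb8 macrophages (exact counting interval 20.9 to 638).

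Several class II genes were far lower in Hoxb8 macrophages, and the gene of their chaperone was higher. MHC class II molecules show peptides to CD4 T cells, and CIITA is the factor that switches their genes on. H2-Eb1, the I-E beta chain, was at 0.21, 0.08 and 0.17 FPKM in Hoxb8 macrophages against 84.3, 86.8 and 85.9 in BMDM (log2 change -8.93, SE 0.32). H2-Ab1, the I-A beta chain, was at 34.7, 37.6 and 38.1 against 249.7, 276 and 284 FPKM (log2 change -2.70, SE 0.07). Ciita was at 0.02, 0 and 0.01 against 4.19, 4.23 and 3.78 FPKM (log2 change -7.70, SE 0.63). No library of either group overlapped in these 3 genes, and H2-Ab1 stayed well above 1 FPKM where H2-Aa and H2-Eb1 were under it. H2-DMb2, part of the peptide editor, fell by 5.81. Chosen after its values were seen, the invariant chain gene Cd74 was at 1034, 1075 and 1128 against 857, 901 and 870.5 FPKM (log2 change 0.46, SE 0.06), the opposite direction. Of 16 class II genes 15 were tested, 3 higher, 9 lower, median -1.55, with 6 within 2-fold, where 70.5% of all tested genes were.

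MHC class I genes were all tested, 5 higher and 10 lower of 18 with a median of -0.55. Of the 18, 10 had an interval within 2-fold, where 70.5% of all tested genes did. Nlrc5, the factor that drives class I genes, fell by 5.10. H2-Q6 and H2-Q4 fell by 6.30 and 2.61. H2-Q7 had 1777 scaled counts in BMDM for each in Hoxb8 macrophages (exact counting interval 319 to 70223). These Qa genes are near-identical copies, whose separate values are uncertain. Costimulation was uneven, 8 higher and 4 lower of 16 tested with a median of 0.20 that turned to -0.15 with TPM. Cd86, which engages CD28 on T cells, was at 0.30, 0.18 and 0.18 against 34.4, 29.2 and 30.97 FPKM (log2 change -6.99, SE 0.28), and Cd40, the receptor of CD40 ligand, fell by 3.51. Icosl rose by 2.54, from a mean of 7.37 FPKM in BMDM to 37.9.

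Untreated macrophages of both groups carried inflammatory transcripts, and more of them were higher in the line. All 26 listed mediators were tested, 15 higher and 7 lower with a median of 0.58, where 31.9% of all tested genes were higher. Beyond 2-fold 7 were higher and 5 lower, where 4.71% and 11.6% of all tested genes were. Nos2, the inducible nitric oxide synthase, was at 2132, 2025 and 1784 FPKM in Hoxb8 macrophages and 630.2, 693 and 597 in BMDM (log2 change 1.81, SE 0.09). Arg1, which competes with it for arginine, was at 1084, 1155 and 1643 against 1937, 1516 and 1419 FPKM, which overlapped (log2 change -0.16, SE 0.16, adjusted p = 0.41). Il6 was at 470.3, 458 and 480.1 against 243, 331 and 409.6 FPKM (log2 change 0.69, SE 0.14, adjusted p = 0.0016). Its BMDM libraries spread widely but all lay below the line. Tnf went the other way without overlap, at 195, 149 and 127 against 219.7, 238 and 222 FPKM (log2 change -0.35, SE 0.13, adjusted p = 0.035). The prostaglandin E synthase Ptges, the terminal enzyme of that pathway, was at 31.7, 28.2 and 29.8 against 395, 415 and 384 FPKM (log2 change -3.57, SE 0.07).

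Chemokines moved in both directions. Of 23 listed CXC and CC chemokines 20 were tested, 7 higher and 11 lower, median -0.51. Among ligands of the neutrophil receptor CXCR2, beside Cxcl1, Cxcl5 was listed at 0 in every Hoxb8 macrophage library and at least 192-fold lower, and Ppbp fell by 6.73, but Cxcl3, another such ligand, changed by only -0.41, from 6940.4 to 4645 mean FPKM. Ccl8 had 83.2 scaled counts in BMDM for each in Hoxb8 macrophages (exact counting interval 14.5 to 3321). Among members chosen after their values were seen, Ccl5, a T cell and monocyte attractant, was at 19682, 20006 and 17012 against 1768, 2387 and 2756 FPKM (log2 change 3.20, SE 0.16). The monocyte attractant Ccl2 was at 448, 390.2 and 539 FPKM in Hoxb8 macrophages against 1646, 989.99 and 1075 in BMDM. Ccl7, a related ligand, was at 61.1, 57.3 and 94.8 against 479, 226 and 230.4 FPKM. In both BMDM replicate 1 was the highest of its group, and every BMDM library lay above the line. Chemokine receptors, 14 of 17 tested, fell in 8 and rose in 3. Ccr7, the lymph node homing receptor, fell by 3.09, and the scavenging receptor Ackr3 and Cxcr3 rose by 4.20 and 2.96.

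Genes of alternative activation moved in both directions. Of 22 listed 18 were tested, 3 higher and 11 lower with a median of -0.64, where 34.6% of all tested genes were lower, and 8 to 14 were lower under the alternatives other than the 5 FPKM filter. Their summed FPKM went the other way, 5190 to 6345 in Hoxb8 macrophages against 3481 to 3783 in BMDM. Mgl2, a galactose-type lectin, fell by 3.64. Retnla had 17.8 scaled counts in BMDM for each in Hoxb8 macrophages (exact counting interval 4.59 to 152). The direction of its modelled change turned under quantile normalisation. Of the arginine genes, 16 of 17 tested, 4 were higher and 8 lower, and the cationic amino acid transporter gene Slc7a2, which feeds both Nos2 and Arg1, fell by 1.55.

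Most tested genes of the type I interferon response were lower. Interferon acts through a complex of STAT proteins and IRF9, which binds the interferon-stimulated response element. Of 28 listed genes 25 were tested, 19 lower and 4 higher, where 34.6% and 31.9% of all tested genes were. Their median was -0.94 where all tested genes had -0.02, and 18 to 21 were lower under every alternative other than the 5 FPKM filter. The promoters of 3 members, the 250 bases before the start in RefSeq (GRCm38.p6), show the element's letters in capitals (GAAA, 2 bases of any kind and GAAA again), on whichever strand they stand. Ifit3 (chr19:34583279-34583528, plus strand) is shown for its paired copies, Oas1a (chr5:120907526-120907775, minus) for copies next to the start, and Ifi205 (chr1:174031756-174032005, minus) for the second largest fall.
Ifit3: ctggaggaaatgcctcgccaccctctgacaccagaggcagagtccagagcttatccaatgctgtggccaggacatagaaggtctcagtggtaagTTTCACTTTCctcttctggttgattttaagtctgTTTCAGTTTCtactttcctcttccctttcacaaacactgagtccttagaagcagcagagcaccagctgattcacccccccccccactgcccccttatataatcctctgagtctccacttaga
Oas1a: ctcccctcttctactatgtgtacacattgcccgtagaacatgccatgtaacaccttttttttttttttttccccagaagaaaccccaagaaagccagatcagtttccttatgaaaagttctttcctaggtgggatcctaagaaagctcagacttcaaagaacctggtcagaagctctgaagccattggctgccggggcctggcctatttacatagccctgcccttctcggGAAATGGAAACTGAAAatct
Ifi205: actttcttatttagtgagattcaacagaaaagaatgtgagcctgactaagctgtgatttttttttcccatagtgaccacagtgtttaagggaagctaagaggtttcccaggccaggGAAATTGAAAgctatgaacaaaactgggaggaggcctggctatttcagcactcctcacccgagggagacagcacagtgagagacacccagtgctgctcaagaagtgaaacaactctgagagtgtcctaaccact
In a window from 250 bases before to 50 after the start, read on both strands, these letters stood in 12 of the 18 listed genes with a promoter (66.7%), against 3.2% of the 8704 tested genes with one. Among genes with a promoter, 3.0% of those called higher and 4.0% of those called lower held them. The match is of letters only, and members moved in both directions. Chosen after its values were seen, Isg15, a ubiquitin-like modifier of the same list, was at 151, 155 and 139 against 79.9, 92.8 and 96.3 FPKM (log2 change 0.90, SE 0.09). Ifi204, which has a role in DNA sensing, was at 0.99, 0.96 and 0.95 FPKM against 20.3, 19.4 and 22.4 (log2 change -4.24, SE 0.12). The groups did not overlap, and the BMDM libraries lay within a narrow range. Ifi205 fell by 3.31, Ifit2, which binds viral RNA, by 2.51 and Oas2, an enzyme that activates RNase L, by 2.36 on the log2 scale. Ifi204, Ifi205, Ifit2 and Oas2 were under 1 FPKM in every Hoxb8 macrophage library. They entered the test only through BMDM, so being lower was fixed by the filter. Ifi204, Ifi205 and their neighbours are members of a cluster with similar copies.

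Where 31.9% of all tested genes were higher, glycolysis and hypoxia genes were higher in Hoxb8 macrophages in 28 of 32 members, all tested. They were lower in 4, with a median of 0.99. Under every alternative other than the 5 FPKM filter 22 to 28 were higher and 4 lower. Their FPKM summed to 31238 to 33614 in Hoxb8 macrophages and 18812 to 20096 in BMDM. Hypoxia-inducible factor binds a core of ACGTG in many of these genes, and ACGTG is also part of the E-box CACGTG, read by MYC and others. The cores, on either strand, are in capitals in 3 promoters: Ero1a (chr14:45318573-45318822, minus), Slc2a1 (chr4:119108495-119108744, plus) and P4ha1 (chr10:59323046-59323295, plus). Each has a core close to the start, at 63, 36 and 16 bases. So did other listed genes not shown, among them Ankrd37 at 6, Car9 at 18 and Ldha at 34 bases, which rose by 1.25, 0.30 and 1.01.
Ero1a: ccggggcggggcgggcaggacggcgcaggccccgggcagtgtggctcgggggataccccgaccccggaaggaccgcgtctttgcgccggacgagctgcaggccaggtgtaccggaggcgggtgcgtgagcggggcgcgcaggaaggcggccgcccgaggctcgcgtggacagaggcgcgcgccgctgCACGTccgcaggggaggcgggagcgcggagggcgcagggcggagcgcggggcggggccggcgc
Slc2a1: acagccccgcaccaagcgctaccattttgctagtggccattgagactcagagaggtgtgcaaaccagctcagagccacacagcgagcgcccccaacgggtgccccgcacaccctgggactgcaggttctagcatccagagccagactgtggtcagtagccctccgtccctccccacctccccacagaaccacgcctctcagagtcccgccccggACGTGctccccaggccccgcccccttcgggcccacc
P4ha1: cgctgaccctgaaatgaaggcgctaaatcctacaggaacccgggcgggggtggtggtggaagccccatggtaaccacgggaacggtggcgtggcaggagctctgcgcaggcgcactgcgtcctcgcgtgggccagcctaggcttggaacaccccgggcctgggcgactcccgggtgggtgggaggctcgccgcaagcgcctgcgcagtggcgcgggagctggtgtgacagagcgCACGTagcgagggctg
Of the 30 listed genes with a promoter 17 held the core (56.7%), against 26.9% of all tested genes with one. Among genes with a promoter, 30.4% of those called higher and 23.6% of those called lower held it. Ero1a, an oxidase of the endoplasmic reticulum, Slc2a1, the glucose transporter GLUT1, and P4ha1, a collagen prolyl hydroxylase, rose by 1.99, 1.44 and 1.13, and were shown for their sequences, not for their size of change. Ndrg1, a gene of the hypoxia response, was at 335, 310.2 and 368 FPKM in Hoxb8 macrophages against 71.4, 82.9 and 74.2 in BMDM (log2 change 2.32, SE 0.08). Vegfa, the vascular growth factor, was at 466, 434 and 486 against 90.4, 127 and 124 FPKM (log2 change 2.18, SE 0.11). Hilpda, which blocks fat breakdown on lipid droplets, was at 1394, 1302 and 1419.8 against 349, 376 and 357 FPKM (log2 change 2.10, SE 0.06). In each of these 3 every Hoxb8 macrophage library was above every BMDM library by more than 2-fold. Slc16a3, the lactate exporter MCT4, moved against the list, at 42.4, 39.8 and 42.5 against 280.5, 274 and 261 FPKM (log2 change -2.53, SE 0.07). The other lower members, named after their values were seen, were Pfkfb3, Ddit4 and Adm, which fell by 1.61, 1.14 and 0.80. Oxygen, cell density and glucose in the cultures are not in the labels, and their part was not tested.

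**Figure D3:**
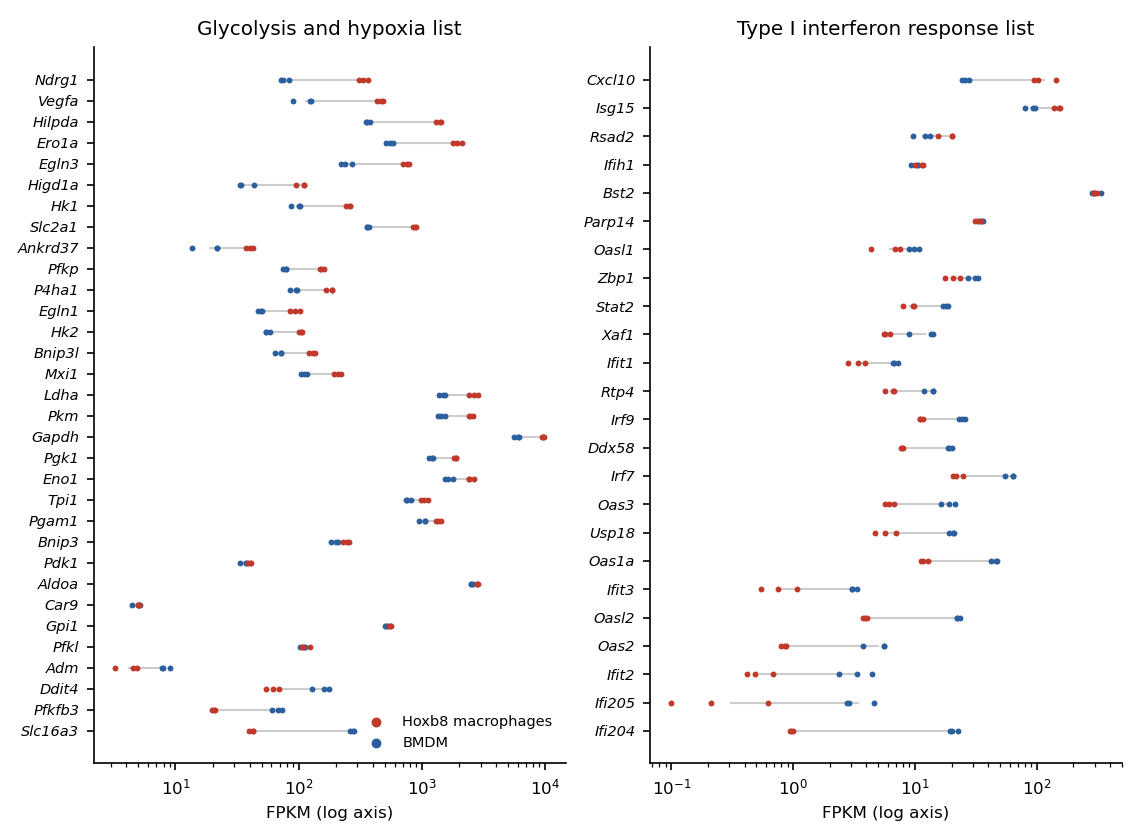
FPKM on a log axis of 32 glycolysis and hypoxia genes and of interferon response genes, 1 point per library, with a line that joins the means of Hoxb8 macrophages and BMDM for each gene. The Hoxb8 macrophages are higher in 28 of the 32 hypoxia panel genes and lower in most of the interferon panel.

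All 28 genes of the TCA cycle and respiratory chain were tested, and 26 had an interval within 2-fold, where 70.5% of all tested genes did. There were 2 higher and 11 lower members with a median of -0.11, but 26 lower under TPM. Mdh2, malate dehydrogenase, was at 421, 400.1 and 373 against 203, 213 and 216 FPKM (log2 change 1.09, SE 0.07), and Fh1, fumarase, the next enzyme upstream, fell by 0.84. Ndufv1 of complex I and Idh3g fell by 0.66 and 0.61.

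Sterol and lipid genes were mostly lower. Of 26 synthesis genes, all tested, 18 were lower and 3 higher with a median of -0.49, where 34.6% of all tested genes were lower. Mvk, Fdps and Pmvk, enzymes of the mevalonate pathway, fell by 2.09, 1.66 and 1.53. Scd1, which puts the double bond into oleate, was at 0, 0.02 and 0 FPKM in Hoxb8 macrophages and 23.6, 23.6 and 20.6 in BMDM. It had 2735 scaled counts in BMDM for each in Hoxb8 macrophages (exact counting interval 757 to 22586). Among lipid handling genes, 21 of 22 tested, 4 were higher and 11 lower, beside the same 34.6% lower over all tested genes. Pltp, a phospholipid carrier, fell by 6.71, the fatty acid binding protein gene Fabp4 by 4.05, and Ch25h, the maker of an oxysterol, was listed at 0 in every Hoxb8 macrophage library and was at least 27.3-fold lower.

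Iron genes leaned the other way, 10 higher and 3 lower of 16 tested among 20, median 0.44. Of all tested genes 31.9% were higher and 34.6% lower. Slc40a1, ferroportin, the only known cellular iron exporter and the target of the hepcidin made from Hamp, was at 0.28, 0.32 and 0.37 FPKM in Hoxb8 macrophages against 3.59, 3.93 and 3.86 in BMDM (log2 change -3.37, SE 0.17). Lcn2, which binds bacterial siderophores, was at 14287, 13768 and 15682 against 5136, 5742 and 5549 FPKM (log2 change 1.58, SE 0.07). Steap3, an iron reductase of endosomes, rose by 1.08. Lcn2 is also a neutrophil granule gene, and that list is given with the other cell types. Of the antioxidant genes under NRF2, 25 tested, 16 were higher and 6 lower, where 31.9% of all tested genes were higher. Their median of 0.33 turned to -0.02 with TPM. Gstm1, a glutathione transferase, was at 805, 789 and 897 against 145, 161 and 147 FPKM (log2 change 2.63, SE 0.07). Gclc, which makes the first step of glutathione synthesis, rose by 1.31, while Nqo1 and Mgst1 fell by 3.25 and 2.11.

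Lysosomal genes moved in both directions. All 30 were tested and 24 had an interval within 2-fold, a share near the 70.5% of all tested genes, with 14 higher and 8 lower and a median of 0.15 that turned negative with library totals, FPKM, TPM and quantile normalisation, to -0.20 at the lowest. The 4 largest changes were in cysteine proteases. Ctsl, cathepsin L, was at 62.3, 66.4 and 55.7 FPKM in Hoxb8 macrophages against 1264, 1106 and 1095 in BMDM (log2 change -4.06, SE 0.10). Legumain (Lgmn), which cuts cathepsins to their mature form, fell by 4.03, cathepsin K (Ctsk) by 2.87 and cathepsin S (Ctss) by 1.76.

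Matrix and adhesion genes carried some of the widest gaps. Of 20 metalloproteases and inhibitors 18 were tested, 3 higher and 11 lower, 10 of them beyond 2-fold, with a median of -2.43. Of all tested genes 34.6% were lower, 11.6% beyond 2-fold. Besides Mmp14, the gelatinase gene Mmp2, which MMP14 activates, fell by 6.26, Mmp25 by 7.93, and the inhibitor Timp3 was listed at 0 in every Hoxb8 macrophage library, at least 71.7-fold lower. Integrins and adhesion molecules, 22 of 23 tested, were even, 9 higher and 10 lower with a median of 0.02 that turned negative with upper quartile factors, library totals, FPKM, TPM and quantile normalisation, and without BMDM replicate 3 or Hoxb8 macrophage replicate 1. Itga1, a collagen receptor chain, fell by 8.47, Vcam1 by 5.47 and Itgae by 4.25. Itgb3, the vitronectin receptor chain, rose, at 143, 141 and 126 against 24.5, 25.4 and 23.1 FPKM (log2 change 2.67, SE 0.08). Among secreted growth factors, 16 of 20 tested, 7 rose and 7 fell. Igf1 fell by 6.11 and Pdgfa by 3.50, Ereg was listed at 0 in every Hoxb8 macrophage library and at least 41.7-fold lower, and Nrg1, an ERBB ligand, was at 4.45, 3.06 and 2.11 against 73.5, 74.3 and 81.2 FPKM (log2 change -5.30, SE 0.14). The estimated count of Nrg1 per FPKM also differed, averaging 1121 and 2057, so that its FPKM differ by less than the modelled change. Fn1, fibronectin, fell by 9.30, whereas F13a1, the clotting factor XIII chain of monocytes, was at 78.4, 74.4 and 79.5 against 3.98, 4.55 and 4.80 FPKM (log2 change 4.30, SE 0.07). Mmp14, Mmp25, Timp3, Itga1, Vcam1, Itgae, Igf1, Ereg and Fn1 were under 1 FPKM in every Hoxb8 macrophage library. Each entered the test only through BMDM, so being lower was fixed by the filter.

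Genes of dividing cells were mostly lower in Hoxb8 macrophages. In the G2 and M phase list 25 of 25 fell, 24 of them beyond 2-fold, with a median of -3.70. Of all tested genes 34.6% were lower, 11.6% beyond 2-fold. The FPKM of the list summed to 28.8 to 38.2 in Hoxb8 macrophages, 340 to 421 in BMDM and 1456 to 1486 in progenitor cells. The S phase list, 24 of 25 tested, had 21 lower and 1 higher with a median of -2.07. It summed to 206 to 242, 372 to 387 and 2708 to 2731 FPKM in the same order. Cdc20, Kif11, Ccna2, Ccnb2, Rrm2, Cdc45 and Pola1 were under 1 FPKM in every Hoxb8 macrophage library. Such members entered the test only through BMDM, so being lower was fixed by the filter. Promoters of mitotic genes often carry the cell cycle homology region (CHR, TTTGAA), through which the DREAM and MYB-MuvB complexes turn them off and on, and those of S phase genes the E2F site, here TTTGGCGC. Capitals mark the CHR letters on either strand in Cdc20 (chr4:118437344-118437593, minus), Kif11 (chr19:37376132-37376381, plus) and Ube2c (chr2:164769679-164769928, plus). In Mcm6 (chr1:128359706-128359955, minus) they mark the E2F letters. All have sites near the start, as did Cdk1 and Top2a, not shown, with CHR letters 15 and 23 bases before it.
Cdc20: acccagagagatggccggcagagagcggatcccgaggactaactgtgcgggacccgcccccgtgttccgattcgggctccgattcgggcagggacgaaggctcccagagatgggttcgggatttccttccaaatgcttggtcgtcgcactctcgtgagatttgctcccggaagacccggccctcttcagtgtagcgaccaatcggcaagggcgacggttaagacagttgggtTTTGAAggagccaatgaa
Kif11: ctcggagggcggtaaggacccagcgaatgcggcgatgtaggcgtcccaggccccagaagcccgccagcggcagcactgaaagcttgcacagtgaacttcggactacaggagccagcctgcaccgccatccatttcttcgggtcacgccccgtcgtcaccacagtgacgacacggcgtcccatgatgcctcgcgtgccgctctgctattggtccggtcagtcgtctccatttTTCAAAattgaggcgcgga
Ube2c: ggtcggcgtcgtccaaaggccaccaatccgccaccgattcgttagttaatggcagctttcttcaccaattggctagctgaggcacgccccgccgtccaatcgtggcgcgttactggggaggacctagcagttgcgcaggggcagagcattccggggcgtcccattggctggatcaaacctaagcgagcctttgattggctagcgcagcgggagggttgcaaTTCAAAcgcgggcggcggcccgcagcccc
Mcm6: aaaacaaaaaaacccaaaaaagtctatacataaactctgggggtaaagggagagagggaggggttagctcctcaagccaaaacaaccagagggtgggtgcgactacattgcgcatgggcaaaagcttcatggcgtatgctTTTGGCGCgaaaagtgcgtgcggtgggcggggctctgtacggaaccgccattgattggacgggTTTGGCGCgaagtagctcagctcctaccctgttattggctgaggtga
TTTGAA stood in 15 of 21 listed G2 and M genes with a promoter (71.4%) and CCAAT in 17 (81.0%), against 12.2% and 39.2% of all tested genes with one. TTTGGCGC stood in 5 of 22 S phase genes (22.7%), against 1.1%. Among all genes called higher and called lower with a promoter, TTTGAA stood in 10.7% and 13.6%. For CCAAT the same shares were 38.7% and 40.3%, and for TTTGGCGC 0.7% and 1.3%. Cdc20, the activator of the anaphase-promoting complex, was at 0.39, 0.33 and 0.31 FPKM in Hoxb8 macrophages against 15.1, 16.5 and 18.8 in BMDM (log2 change -5.42, SE 0.23), with 99.97 in progenitor cells. Mki67, the proliferation marker Ki-67, was at 6.53, 6.81 and 4.65 against 27.6, 34.6 and 42.2 FPKM (log2 change -2.37, SE 0.16), with 79.3 in progenitor cells. The order was the same for both genes, progenitors above BMDM above Hoxb8 macrophages, with no overlap. The kinesin Kif11 and the cyclins Ccna2 and Ccnb2 fell by 5.26, 5.21 and 5.06. In S phase, Rrm2, the regulated subunit of ribonucleotide reductase, was at 0.70, 0.90 and 0.49 against 19.3, 20.3 and 23.7 FPKM (log2 change -4.73, SE 0.20), and Cdc45, Mcm7 and Pola1 fell by 3.91, 3.59 and 3.57. The 1 higher member, Pcna, the sliding clamp of replication and repair, was named after its values were seen, at 123, 116 and 154 against 107, 99.7 and 101 FPKM (log2 change 0.52, SE 0.10). Beside Cdkn2a, the inhibitor gene next to it, Cdkn2b, rose by 2.98, Cdkn2c fell by 2.50, and Ccnd1, the gene of a D-type cyclin, fell by 4.67. Their list of CDK inhibitors and D-type cyclins, 13 of 14 tested, held 6 higher and 3 lower members with a median of 0.10, which turned negative with library totals, FPKM and TPM.

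Many transcripts that define other marrow cells were present in BMDM and lower or at 0 in Hoxb8 macrophages, while some, such as Lcn2, F13a1, Siglecf and stefin A genes, were higher. Their part in the differences above was not tested. In progenitor cells F13a1 and Siglecf averaged 248 and 71.9 FPKM, above both macrophage groups, while Lcn2 averaged 12.5 and Stfa1 was listed at 0. A marker under 1 FPKM in every Hoxb8 macrophage library entered the test only through BMDM, so being lower was fixed by the filter. The primary granule genes, 12 of 12 tested, were 8 lower and 3 higher with a median of -3.38. Elane, neutrophil elastase, was at 0.28, 0 and 0.09 FPKM in Hoxb8 macrophages against 47.7, 90.8 and 93.6 in BMDM (log2 change -9.01, SE 1.38), and Mpo, myeloperoxidase, at 0.05, 0.07 and 0.03 against 15.3, 22.8 and 23.7. S100a8, a calprotectin chain of neutrophils and monocytes, was at 898, 722 and 1026 FPKM against 2385, 6362 and 4866, and its partner S100a9 at 305, 353 and 278 against 1629.7, 3494 and 3842. In these 4 genes BMDM replicate 1 was the lowest of its group, and no BMDM library overlapped the line. Of 24 neutrophil genes, all tested, 16 were lower and 7 higher with a median of -1.08, and Mmp8, Ltf and Cd177 fell by 4.37, 4.36 and 4.08. Yet their summed FPKM was higher in Hoxb8 macrophages, 26350 to 32169 against 15638 to 22754, where Lcn2 is a member and so are stefin A genes, of which Stfa1 and, chosen after its values were seen, Stfa3 rose by 3.23 and 2.10. Copies of that family are near-identical and their separate values uncertain.

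Several B cell genes were present in BMDM and at 0 in Hoxb8 macrophages. Of 12 listed, 6 passed the level filter, 5 lower and 1 higher. Those at 0 in Hoxb8 macrophages could pass it only through BMDM, so their direction was fixed in advance. Cd79b, a signalling chain of the B cell receptor, was at 0 in all 3 Hoxb8 macrophage libraries against 18.7, 11.7 and 16.6 FPKM. Pax5, the lineage's factor, and Ms4a1, CD20, were also at 0 there, and Cd79b, Pax5 and Ms4a1 were at least 76.4-fold, 87.6-fold and 18.9-fold lower. The summed level of the list did not follow, 107 to 118 FPKM against 79.6 to 109, and it held Blnk, an adaptor that macrophages also express, chosen after its values were seen, at 112, 107 and 118 against 52.1, 47.8 and 49.6 FPKM. Basophil and mast cell genes, 10 of 14 tested, were 5 lower and 3 higher, with Mcpt8 at 6.09, 7 and 13.2 against 89.4, 93.9 and 111 FPKM, and Prss34 fell by 3.71. Eosinophil genes, 8 of 10 tested, were 7 lower and 1 higher, Epx at 2.30, 2.80 and 3.48 against 28.2, 55.7 and 56.3 FPKM, with BMDM replicate 1 the lowest of its group, and Siglecf rising by 2.48. Dendritic cell genes, 13 of 18 tested, were 11 lower and 1 higher with a median of -2.10, and the actin bundler Fscn1 fell by 9.15, with Dpp4 at 0 in every Hoxb8 macrophage library and at least 40.2-fold lower. Fibroblast genes, 8 of 16 tested, were 6 lower and 2 higher. Thy1 was at 0.64, 1.33 and 1.16 against 36.1, 52.3 and 62.3 FPKM. Col1a1, a collagen chain, had 677 scaled counts in BMDM for each in Hoxb8 macrophages (exact counting interval 121 to 26790). Osteoclast genes, 8 of 11 tested, were 7 lower and 1 higher, and the fusion receptor Dcstamp fell by 3.79.

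**Figure D4:**
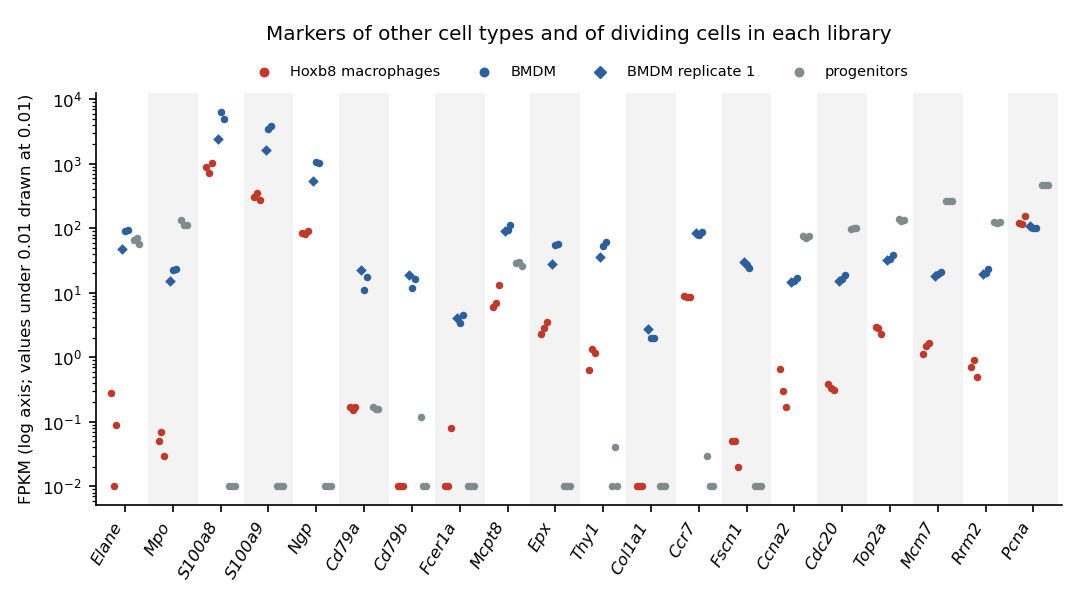
FPKM on a log axis of genes that define neutrophils, B cells, mast cells and basophils, eosinophils, fibroblasts, mature dendritic cells and dividing cells, 1 point per library for Hoxb8 macrophages, BMDM and progenitors, with BMDM replicate 1 drawn as a diamond and values under 0.01 at 0.01. The diamond is the lowest BMDM point for Elane, Mpo, S100a8, S100a9 and Epx.

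Megakaryocyte genes, 8 of 11 tested, were 6 lower and 2 higher, and endothelial genes, 5 of 10 tested, 4 lower and 1 higher. Of T and NK cell genes 3 of 15 passed the level filter and all 3 were lower, among them Gzmb, listed at 0 in the line and at least 8.81-fold lower. Erythroid genes, 3 of 12 tested, were 2 lower and 1 higher. Of 18 monocyte genes 17 were tested, 6 higher and 7 lower with a median of 0.04 that turned negative with the same 5 scalings and without BMDM replicate 1 or Hoxb8 macrophage replicate 1.

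**Figure D5:**
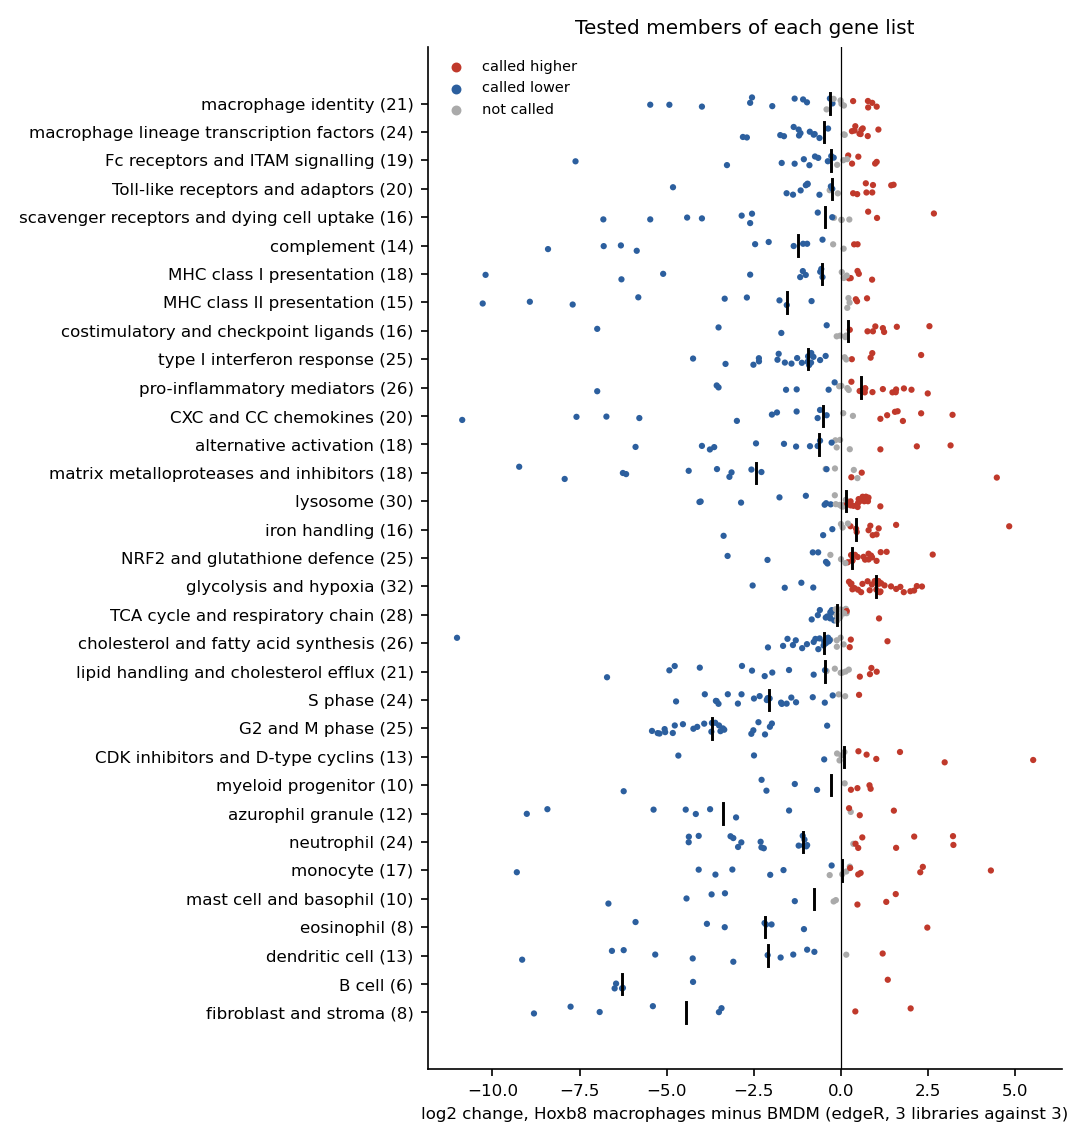
Log2 change, Hoxb8 macrophages over BMDM, of every tested member of 33 gene lists, coloured by whether the member was called higher, called lower or not called, with a black tick at each list's median and genes at 0 in every Hoxb8 macrophage library drawn at their bound. The G2 and M phase list lies wholly below 0, with a median of -3.70, and the glycolysis and hypoxia list almost wholly above 0, with a median of 0.99.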

How the data were processed

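Poly(A) RNA of 15 mouse samples was sequenced by the authors with a BGI DNBSEQ kit and random hexamers, per the labels' protocols. The 6 libraries of Hoxb8 macrophages and BMDM were grouped by their titles. The submitters' processing notes list the tools HISAT2, Bowtie2, RSEM 1.3.1 and DESeq2 1.4.5 and the build GRCm38.p6 without saying what each was for. The annotation and whether counting used strand are not given in the sources here, so overlapping and antisense genes are uncertain.

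The estimated counts, FPKM and TPM are values the authors deposited, named so or as read counts per the file headers. Of the estimated counts, 94.4% to 96.0% per library were whole, and they summed to 17531784 to 19221681 in the 6 libraries. They were rounded and tested with edgeR 4.0.16 (R 4.3.3) on genes at 1 FPKM or more in at least 3 of the 6 libraries, with TMM and a quasi-likelihood fit of the 6 libraries alone. Tests were two-sided, with p-values adjusted by Benjamini-Hochberg over 10699 genes and called under 0.05. Changes beyond 2-fold used glmTreat. Levels are FPKM per library, and changes are modelled log2 ratios with their SE. For bounds, a gene with no count was given 3 counts per library. Scaled counts in BMDM for each in Hoxb8 macrophages are ratios of counts divided by the summed library totals of each group, without TMM. Intervals on them are exact, at 95%, and cover counting error only. The scripts were tested on simulated data.

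The members and the 45 gene lists were chosen with earlier results of these data known. A naming rule gave the genes in the text. It took the 8 genes that rose most and the 8 that fell most in log2(mean FPKM + 1), if called, at 10 FPKM or more and without overlap, passing over provisional symbols. It added the 4 called genes of each list that changed most, a fixed set, and the 8 most abundant genes within 2-fold. Genes outside it are marked in the text, apart from markers of other cell types, given as levels. Some single genes are not reported here. Promoters are from RefSeq. Of 17030 gene identifiers 16978 matched RefSeq, 25 symbols turned into dates were restored, and 15 columns of the authors' means were not used. Alternatives were other scalings, filters and models, DESeq2 1.42.0, limma 3.58.1 and leaving out each library.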

Additional observations from a re-analysis of the deposited data

How the results depend on the processing

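The number of genes called was stable, and the balance of higher and lower genes was not. Across every alternative with the same genes tested, 6330 to 8066 genes were called. Higher genes numbered 2272 with library totals, 2265 with limma on log2(FPKM + 0.1) and 1584 with TPM, where lower genes numbered 6482. The test beyond 2-fold gave 2812 genes (2123 lower) with no FPKM filter, on 15839 genes, and 1011 (668 lower) with a filter of 5 FPKM, on 8036. Pearson's coefficient between the group means was 0.948, and 0.947 with TPM. Spearman's was 0.932, a shift larger than the spread between pairs of libraries (SD 0.0014). Leaving out each library in turn left 6330 to 7093 genes called, 2987 to 3396 higher and 3343 to 3697 lower, and 1659 to 1755 beyond 2-fold. The replicate numbers of the labels did not pair the libraries: deviations of same-numbered libraries correlated at -0.12, -0.01 and -0.19, no library correlated best with its own number, and a fit with the replicate block called 6632 genes. Of 191 named genes, 189 were called and 14 of these lost the call under some alternative. Quantile normalisation reversed Retnla (0.65), Tnfsf4 (1.35), Pycr1 (0.43), Hbb-bt (1.97), Il1b (-0.26) and Tmsb4x (-0.33), TPM reversed Cyba (-0.049), Ftl1 (-0.075) and Tmsb4x (-0.17), and library totals Tmsb4x (-0.0073). The cause was not tested. Of 2430 counts and medians of lists under the alternatives, 2115 lay within 1.5 times the reported count or, for a median, within the spread between libraries. The medians of 10 lists changed sign under some alternative. Genes at 0 in Hoxb8 macrophages have only a bound, which depth sets.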

Other observations

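A set of 17 genes at 10 FPKM or more in BMDM had no count in any of the 3 Hoxb8 macrophage libraries, whereas Hoxb8 alone met the reverse condition. These genes were found by this rule after the values were seen. Apart from Cxcl1, Cck, Npy, Cxcl5, C1qa and Cd79b they were Plbd1, a phospholipase of lysosomes, at 137, 133 and 129 FPKM in BMDM, the calcium buffer Calb2 at 49.1, 40.9 and 42.0, the cytochrome P450 gene Cyp1b1 at 26.7, 24.5 and 23.8, the soluble pattern receptor gene Ptx3 at 14.3, 15.2 and 16.7, and Gatm, Jaml, Ly6d, Gypc, Snx7, Epb41l3 and Tnfrsf13c at means of 10.1 to 13.6. In progenitor cells 13 of the 17 had no count either. In CAR macrophages 8 of the 17 averaged 1 FPKM or more, among them Cxcl1 at 97.5, Snx7 at 22.9 and Cyp1b1 at 16.4, while Cck was listed at 0 there. Plbd1 was at least 1143-fold and Cyp1b1 at least 613-fold lower in Hoxb8 macrophages than in BMDM.

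The estimated count of Esr1 divided by its FPKM, a measure of the transcript length that the authors' FPKM used, was set apart. In arbitrary units that scale with length, it was 1941, 1956 and 1929 in the Hoxb8 macrophage libraries, 3919, 4492 and 3910 in BMDM, and 1866 to 1878 in progenitor cells. Of 8468 genes at 2 FPKM or more in all 6 libraries, only Esr1 and Nrg1 (means of 1121 and 2057) differed by more than 1.5-fold in this ratio between the groups, and 98.8% differed by less than 10%. The sequence of the reads was not analysed here.

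The 10 most abundant genes took 23.3% to 23.8% of TPM in Hoxb8 macrophages, 16.1% to 16.5% in BMDM and 6.29% to 6.46% in progenitor cells. Fth1 alone took 7.31% to 8.02% and 5.43% to 5.77% in the macrophage groups. Genes whose interval lay within 2-fold held 66.5% to 67.7% of TPM in Hoxb8 macrophages and 75.0% to 76.0% in BMDM. Control-CAR macrophages correlated with Hoxb8 macrophages at 0.996 to 0.998 over their 9 pairs of libraries, close to the 0.998 within Hoxb8 macrophages, and with BMDM at 0.944 to 0.950.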
